A study of Mus musculus with 6 samples.

Results

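The subject is the response of mouse embryonic stem cells to Fip1 siRNA 3, measured as the difference between the 2 arrays labelled siRNA 3 and the 2 mock arrays. These are 4 of the 6 arrays of the series. The other 2 received Fip1 siRNA 2 and were kept out of the contrast. Each siRNA 3 array was paired with the mock array that bears its replicate number, since their titles share a suffix. All 15267 genes with a symbol were tested, out of 16556 probe sets on the array.

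The cells were E14Tg2a.4, an established embryonic stem cell line, kept in M15 medium on gelatin without a named feeder layer. All groups were lipofected with Lipofectamine 2000 and collected on day 4. The siRNA 3 group received the siRNA labelled 3 against Fip1l1, and the mock group received the lipid alone. No group used here carries a non-targeting siRNA, so depletion of Fip1, the presence of any siRNA and off-target effects of siRNA 3 cannot be told apart in this contrast. The labels do not say whether replicates were separate cultures, so p-values here reflect only the spread among these arrays, which may be technical. In bulk RNA, fewer cells of a type and less RNA per cell cannot be told apart.

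Fip1, the product of Fip1l1, belongs to CPSF, the cleavage and polyadenylation specificity factor. This complex reads the poly(A) signal near the 3′ end of a nascent transcript, cuts the RNA and recruits the poly(A) polymerase, to which Fip1 binds. Many genes carry several poly(A) signals, and the signal that is used sets where the mRNA ends. Array probes can lie before or after such an alternative end. Probe positions were not used here. A lower or a higher value may therefore be a change in level or a change of transcript end, and these cannot be told apart.

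Values are given on the log2 scale as deposited after RMA, 1 per probe set, so a difference of 1 is a doubling. The array medians lay between 6.08 and 6.12, and arrays correlated with each other at 0.986 to 0.997 over genes. The median standard deviation between arrays was 0.0986 for siRNA 3 and 0.108 for mock. A gene is called higher or lower where the limma p, adjusted by Benjamini-Hochberg over all 15267 genes, was under 0.05 in a fit with the replicate number as a block. Detection calls were not used, so where a group reads below 4.28, the upper end of the lowest quartile of mean level, its signal is not shown to be above background and the size of a difference from it is uncertain. Defining markers of embryonic stem cells had high values on all 4 arrays, from 13.27 to 13.48 for Pou5f1 and from 12.30 to 12.76 for Nanog. The fibroblast collagen genes were low, from 3.84 to 4.08 for Col1a1 and from 3.67 to 3.84 for Col1a2. Not all fibroblast markers were: the 17 measured had a median mock level of 4.72, and the highest was 10.77.

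Fip1l1, on chromosome 5, checks the labels. Mock arrays gave log2 values of 9.65 and 9.74, and siRNA 3 arrays gave 8.39 and 7.86. Both siRNA 3 arrays lay below both mock arrays, and the lower of them was replicate 2. The log2 difference was -1.57 (SE 0.147, limma adjusted p = 0.00044), which left 33.7% of the mock level (95% interval 26.7% to 42.4%). Within the pairs, 41.8% was left in replicate 1 and 27.1% in replicate 2.

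In all, 2156 genes were called, which is 14.1% of those tested. Of these, 876 (5.74%) were higher with siRNA 3 and 1280 (8.38%) were lower. Most differences were small: 52.2% of the called genes differed by less than 1.5-fold. A difference of at least 2-fold was found for 240 called genes (111 higher, 129 lower), and one of at least 4-fold for 7. Each called gene differed in the same direction in both pairs, as the fit favours, while 69.3% of all genes did so. Across genes, which are not independent, the differences of replicate 1 and replicate 2 correlated at 0.71. Few dim genes were called: 2.1% in the lowest quartile of mean level, 9.85% and 21.4% in the next ones and 23.2% in the highest. Without the replicate block 877 genes were called (5.74%), all among the 2156, and 219 of the 240 at 2-fold or more kept their call. The count was 702 without mock replicate 2, 1123 without siRNA 3 replicate 2, 1553 without siRNA 3 replicate 1 and 1908 without mock replicate 1. In every fit that left out 1 array, 579 of the 2156 and 226 of the 240 were called.

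**Figure D1:**
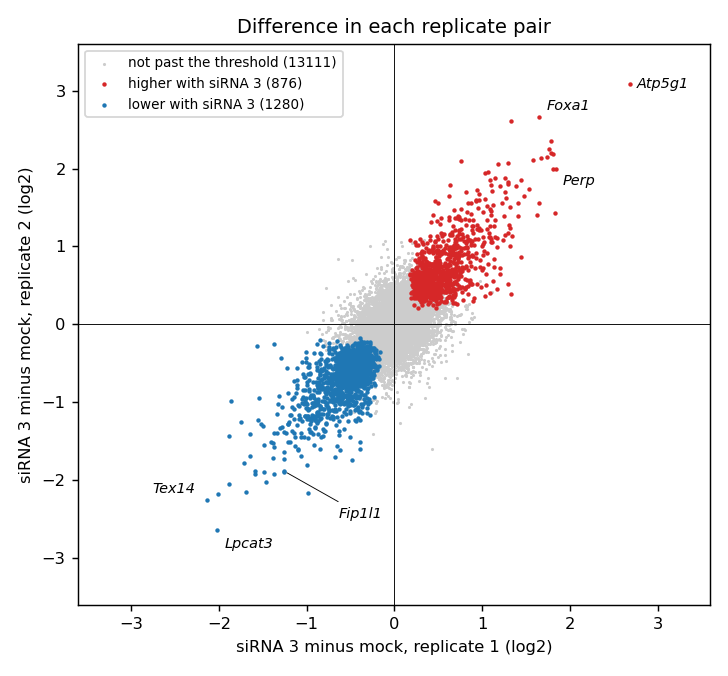
Each point is a gene, with the log2 difference between siRNA 3 and mock in replicate 1 on the horizontal axis and in replicate 2 on the vertical axis. The 876 genes called higher are red, the 1280 called lower are blue and the others are grey. The called genes fill the upper right and lower left, and Fip1l1 lies further from 0 in replicate 2 than in replicate 1.

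**Figure D2:**
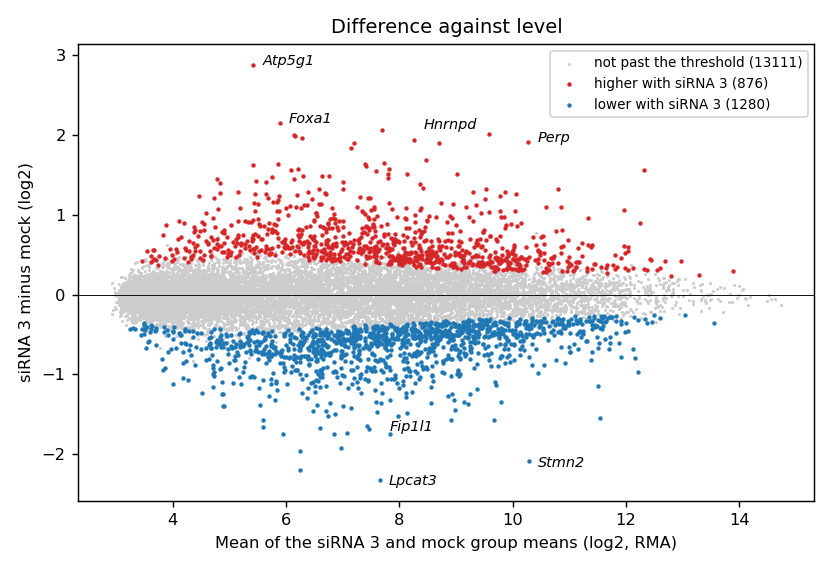
The log2 difference between siRNA 3 and mock (vertical axis) is plotted for each gene against the mean of the group means in log2 RMA units (horizontal axis). Called genes thin out at the dim end, where 2.1% of the lowest quartile was called against 23.2% of the highest. Atp5g1 and Foxa1, among the largest rises, were dim on the mock arrays.

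Atp5g1 encodes the c subunit, which forms the membrane ring of mitochondrial ATP synthase. Mock arrays gave log2 values of 3.99 and 3.97, and siRNA 3 arrays gave 6.67 and 7.05. The groups did not overlap, and the mock values lay in the range of the dimmest quartile, not shown to be above background. The measured rise was 7.37-fold (log2 difference 2.88, SE 0.144, limma adjusted p = 5.38e-05), a lower bound where the mock signal is background. The value for Atp5g3, which encodes the same ring subunit from another locus, was 0.09 and did not pass. Of the list of ATP synthase and respiratory chain genes 8.7% were called, against 14.1% of all genes. The list's median mock level of 12.08 lay in the range of the brightest quartile, of which 23.2% were called. Of 23 measured genes of ATP synthase and the respiratory chain, Atp5g1 alone was called higher (2 genes without either siRNA 2 array) and Atp5e, the epsilon subunit, alone lower (-0.27). The call of Atp5e ended without the block (adjusted p = 0.119) and without any 1 of the siRNA 3 and mock arrays (0.077 to 0.397).

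Foxa1, a forkhead factor that opens chromatin in endoderm and epithelia, read 4.95 and 4.68 on mock arrays and 6.596 and 7.34 with siRNA 3. The siRNA 3 arrays lay above the mock arrays by a wide margin and differed from each other more than for most genes. The rise was 4.45-fold (log2 difference 2.15, SE 0.222, limma adjusted p = 0.000629). Its family members Foxa2 (-0.18) and Foxa3 (-0.19) did not pass. Fbp2, the muscle form of the gluconeogenic enzyme fructose bisphosphatase, read 6.64 and 6.66 on mock arrays and 8.42 and 9.02 with siRNA 3, a 4.19-fold rise. Fbp1, the liver form, also rose (log2 difference 1.48). Hnrnpd encodes AUF1, which binds AU-rich elements of mRNAs and promotes mRNA decay. It read 8.61 and 8.55 on mock arrays and 10.38 and 10.80 with siRNA 3, a 4.02-fold rise, while the related Hnrnpab (-0.09) and Hnrnpdl (-0.03) did not pass. Perp, a membrane protein of desmosomes that is induced by p53, had the smallest adjusted p of the named rises. It read 9.46 and 9.17 on mock arrays and 11.29 and 11.17 with siRNA 3, a 3.78-fold rise (SE 0.088 on the log2 scale, limma adjusted p = 5.01e-05).

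The other genes among the 15 largest rises had log2 differences between 1.62 and 2.00. They were Ccdc113, a coiled-coil protein of cilia, the ribosomal protein genes Rps15a and Rpl21, the pleckstrin-like gene Phlda1, the linker histone gene H1f2 and Cryab, which encodes a small heat shock protein. The remaining ones were Zfp352, a zinc finger gene of the cleavage embryo, the stress-induced transcription factor gene Atf3, Hmgcll1, a lyase of ketone body synthesis, and Rtkn. In each of the 15, both siRNA 3 arrays lay above both mock arrays. The genes were chosen as the largest rises among called genes, which favours such separation, and its share among all genes was not counted. Hmgcll1 had the widest error of the 15 (SE 0.247), with pair differences of 1.18 and 2.06.

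**Figure D3:**
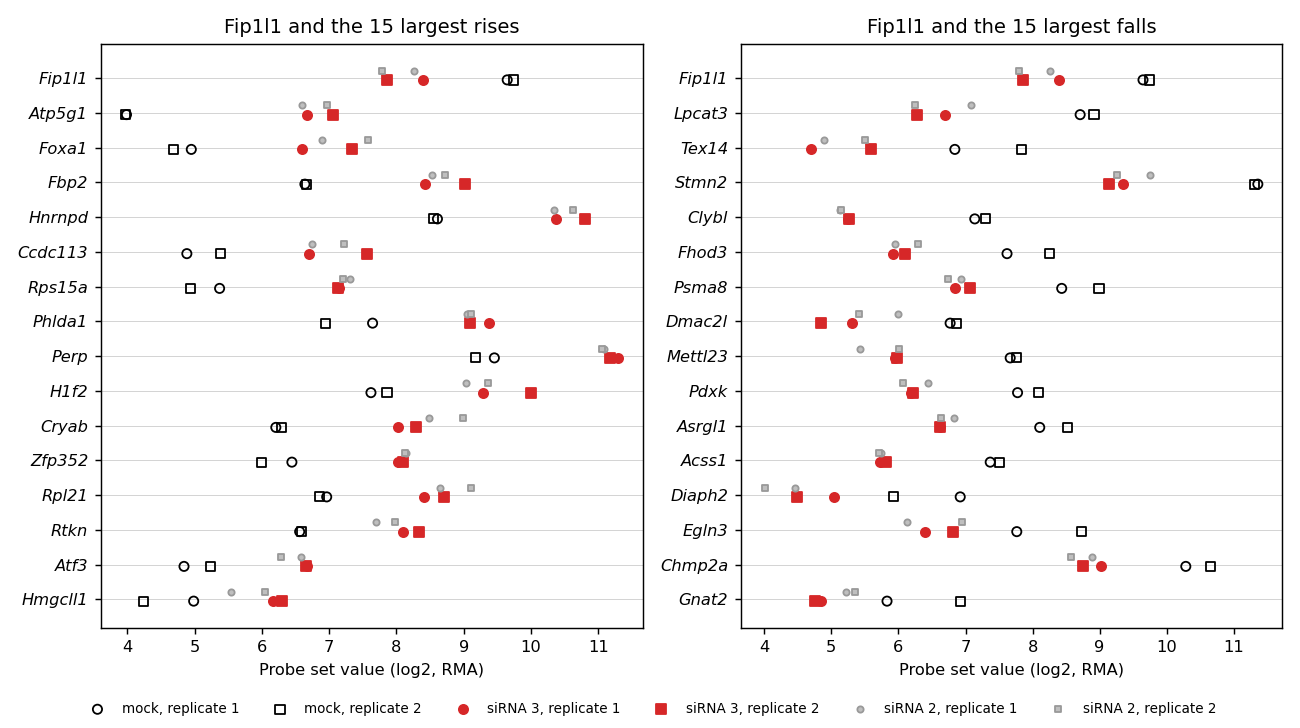
The log2 RMA value on each array is shown for Fip1l1 with the 15 largest rises (left) and the 15 largest falls (right). Open black symbols are mock, red symbols siRNA 3 and small grey symbols siRNA 2, with circles for replicate 1 and squares for replicate 2. For every gene shown, the siRNA 3 arrays do not overlap the mock arrays. All but Fip1l1 were chosen for large differences, which favours this.

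Lpcat3, which places polyunsaturated fatty acids into phospholipids, fell most. It read 8.71 and 8.92 on mock arrays and 6.69 and 6.28 with siRNA 3. The groups were far apart, and the drop was 5.02-fold (log2 difference -2.33, SE 0.203, limma adjusted p = 0.000367). Its relatives Lpcat1 (0.32) and Lpcat4 (0.05) did not pass, though Lpcat1 did without either siRNA 2 array (adjusted p = 0.0446 and 0.0449). Tex14, which keeps intercellular bridges of germ cells open, read 6.84 and 7.84 on mock arrays and 4.70 and 5.59 with siRNA 3. Both groups had their higher value in replicate 2, and the drop was 4.58-fold (SE 0.140 on the log2 scale). Stmn2, a tubulin-binding protein of growing axons, was bright on the mock arrays at 11.36 and 11.31 and read 9.35 and 9.13 with siRNA 3. It fell 4.26-fold (SE 0.111 on the log2 scale, limma adjusted p = 6.1e-05). The related Stmn3 (-0.14) did not pass. Stmn4 was higher (log2 difference 0.67), a call that ended without the block (adjusted p = 0.257).

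Several other large falls were of metabolic enzymes. Clybl, a mitochondrial lyase that clears citramalyl-CoA, read 7.14 and 7.30 on mock arrays and 5.25 and 5.26 with siRNA 3, a 3.90-fold fall. Pdxk, the pyridoxal kinase that activates vitamin B6, fell 3.33-fold, Asrgl1, an asparaginase, 3.22-fold and Acss1, the mitochondrial acetyl-CoA synthetase, 3.18-fold. Acss2, which makes acetyl-CoA outside mitochondria, also fell (log2 difference -0.99). Egln3, a prolyl hydroxylase that acts on hypoxia-inducible factor, fell 3.13-fold. Its relative Egln1 was lower (log2 difference -0.81), a call that ended without the block (adjusted p = 0.113), without siRNA 3 replicate 2 (0.057) or without mock replicate 2 (0.264), and Egln2 (-0.12) did not pass.

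The formins Fhod3 and Diaph2, which extend actin filaments, fell 3.79-fold and 3.16-fold. Their relatives Fhod1 (0.03), Diaph1 (-0.11) and Diaph3 (0.07) did not pass. The remaining genes among the 15 largest falls were Psma8, a proteasome subunit of the testis, Dmac2l, a mitochondrial protein linked to ATP synthase, the methyltransferase gene Mettl23, Chmp2a of the membrane-cutting ESCRT-III complex and Gnat2, the transducin of cone photoreceptors. Their log2 differences lay between -1.75 and -1.57. The value for Chmp2b, the paralogue of Chmp2a, was 0.04 and did not pass. The choice of the largest differences among called genes favours low adjusted p and calls that hold in other fits. The adjusted p of the 30 largest rises and falls lay between 5.01e-05 and 0.00342, and each call held without the block (highest adjusted p 0.0329) and without any 1 array.

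The 3′ end processing machinery itself was examined by complex. Of the 8 measured CPSF genes, Fip1l1 and Cpsf4 were lower and Sympk was higher, a background of 14.1% being called among all genes. Cpsf4, a zinc finger subunit that contacts the poly(A) signal, had a log2 difference of -0.31 (SE 0.087, limma adjusted p = 0.0413). Sympk, the symplekin scaffold, had a difference of 0.41 (SE 0.095, limma adjusted p = 0.0215). Neither call held without the block (0.142 and 0.0696) or without any 1 of the siRNA 3 and mock arrays (0.137 to 0.274 for Cpsf4, 0.0893 to 0.185 for Sympk). The endonuclease gene Cpsf3, Cpsf1, Cpsf2, Wdr33 and Cpsf4l did not pass, with differences from -0.13 to 0.17. None of the genes of the cleavage stimulation factor, Cstf1, Cstf2, Cstf2t and Cstf3, passed in limma (-0.01 to 0.27), nor did Cpsf6 (-0.15) or Cpsf7 (0.25) of cleavage factor I. An unadjusted p under 0.05 was reached by 1 gene of each complex, and by 4187 of all 15267 genes. Without siRNA 3 replicate 1, Cstf3 passed (log2 difference 0.48 in place of 0.27, adjusted p = 0.0142).

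Among the 9 genes of cleavage factor II and termination, 3 were higher and none lower by limma, with 5 and 1 at an unadjusted p under 0.05. Of all genes, limma called 5.74% higher and 8.38% lower, and 4187 of the 15267 had an unadjusted p under 0.05. Pcf11, which couples cleavage to release of RNA polymerase II, read 8.996 and 8.87 on mock arrays and 10.01 and 9.90 with siRNA 3. The arrays of each group lay close together and the groups were well apart, with a log2 difference of 1.02 (SE 0.099, limma adjusted p = 0.000511). Rbbp6, a ubiquitin ligase of the cleavage complex, rose by 0.87 and Ssu72, a phosphatase of the polymerase tail, by 0.62 on the log2 scale. These 3 calls held without the block and without any 1 array. Clp1, Xrn2, Scaf4, Scaf8, Ppp1ca and Ppp1cb did not pass (-0.28 to 0.23), though Ppp1cb did without either siRNA 2 array (adjusted p 0.0498 each time).

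Of 6 measured poly(A) polymerase genes, Papolg (log2 difference -0.46, adjusted p = 0.00999) and the mitochondrial Mtpap (-0.39, adjusted p = 0.0233) were lower by limma. Among all genes 8.38% were lower. The call of Papolg ended without siRNA 3 replicate 2 (0.0917) or mock replicate 2 (0.0966). That of Mtpap ended without the block (0.0781) and without any 1 of the siRNA 3 and mock arrays (0.0512 to 0.197). Papola, the main nuclear polymerase, read 9.76 and 9.86 on mock arrays and 10.30 and 10.11 with siRNA 3, a difference of 0.39 that did not pass (adjusted p = 0.0501). It passed without siRNA 3 replicate 2 (0.59, adjusted p = 0.00757) and without either siRNA 2 array. Tent4a, Papolb and Tut1 did not pass either (-0.25 to -0.06). For poly(A) binding proteins, 1 of 3 measured genes was called, against 14.1% of all genes. Of the measured poly(A) binding protein genes, Zc3h14, a nuclear protein that limits tail length, was higher (0.50, adjusted p = 0.0157), a call that ended without the block (0.0538) or without mock replicate 2 (0.188). Pabpn1 (-0.06) and Pabpc1l (0.36) did not pass, though Pabpc1l did without siRNA 3 replicate 1 (0.87, adjusted p = 0.00087) or without mock replicate 1 (0.82, adjusted p = 0.0428).

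Genes that siRNA itself may engage were looked at because no group carries a control siRNA. Of 10 RNA interference factors, Xpo5, the exporter of microRNA precursors, was lower and Drosha, the nuclease that frees those precursors, was higher. The share called was 20%, against 14.1% of all genes. Xpo5 read 8.66 and 8.74 on mock arrays and 7.79 and 7.57 with siRNA 3, and its groups were well separated. Its log2 difference was -1.02 (SE 0.119, limma adjusted p = 0.000965). That of Drosha was 0.33 (adjusted p = 0.0391), a call that ended without the block (0.175) and without any 1 of the siRNA 3 and mock arrays (0.119 to 0.309). Dicer1, Dgcr8, Ago3, Ago4, Prkra, Tnrc6a, Tnrc6b and Tnrc6c did not pass (-0.21 to 0.37), though Dicer1 (adjusted p = 0.0415) and Tnrc6a (0.0217) were called higher without mock replicate 1. Among all genes limma called 5.74% higher and 8.38% lower, and 4187 of the 15267 had an unadjusted p under 0.05. Of 20 interferon response genes limma called none higher and 1 lower, with 1 and 3 at an unadjusted p under 0.05. That gene was Bst2, which tethers enveloped viruses, with 9.46 and 9.56 on mock arrays and 8.89 and 8.21 with siRNA 3 (log2 difference -0.96, adjusted p = 0.00571, and 0.0543 without the block). The sensor gene Ifih1 (-0.28), the regulator Irf7 (-0.27) and Cxcl10 (0.32) did not pass.

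**Figure D4:**
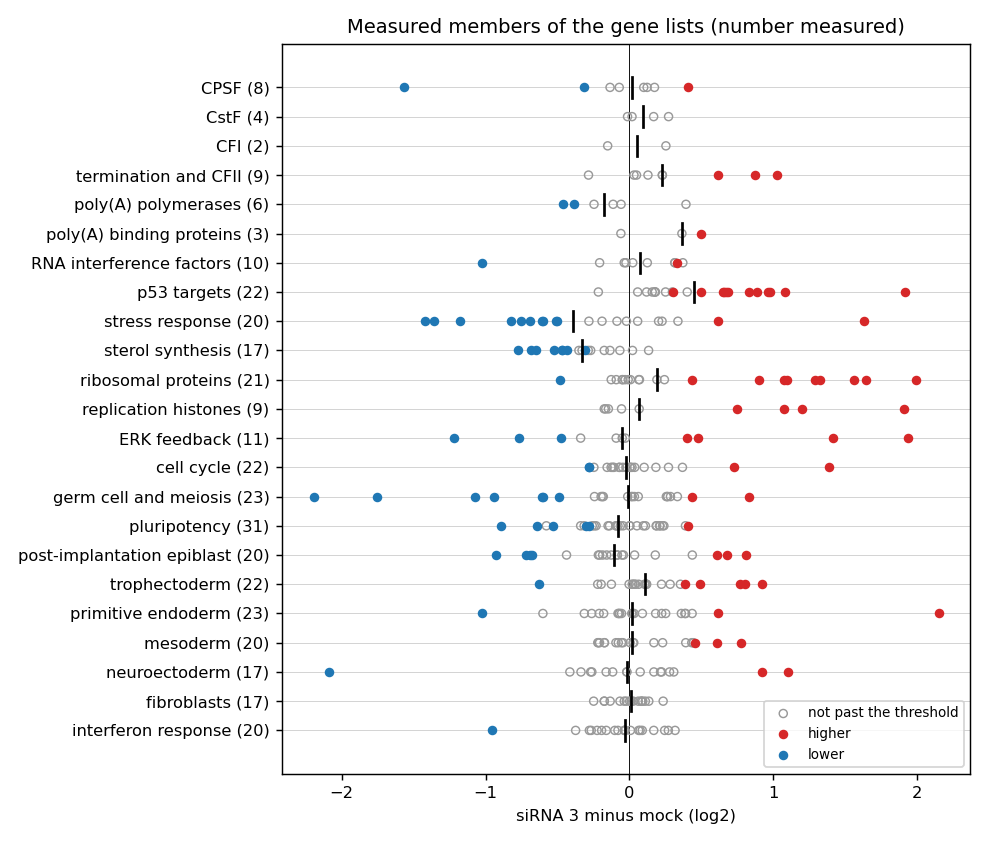
Each row is a gene list with the number of its measured members in brackets, and each point is a member placed by its log2 difference between siRNA 3 and mock. Red points were called higher, blue points lower, open points did not pass, and the black bar is the list's median. The p53 targets called are all to the right of 0, the sterol genes called are all to the left, and no fibroblast marker was called.

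Targets of p53, the transcription factor that arrests or kills damaged cells, were the list with the most genes called higher. Of 22 measured, limma called 12 higher and none lower, against 5.74% and 8.38% of all genes. At an unadjusted p under 0.05 they were 15 and 0, a limit that 4187 of all 15267 genes reached in either direction. The list's median log2 difference was 0.45 against -0.02 for all genes. Mdm2, the ubiquitin ligase that degrades p53, read 9.43 and 9.45 on mock arrays and 10.30 and 10.25 with siRNA 3. Its arrays hardly differed within a group, and its log2 difference was 0.83 (SE 0.082, limma adjusted p = 0.000523). Pmaip1, which encodes the death protein Noxa, rose by 0.98, Plk2, a kinase of the stress response, by 0.97, and Gadd45a, a growth arrest protein, by 0.89. Perp (1.92) and Ddit4l (1.08), an inhibitor of mTOR signalling, had the largest rises of the list. Cdkn1a, which encodes the cell cycle inhibitor p21, read 8.74 and 8.96 on mock arrays and 9.13 and 9.08 with siRNA 3, a difference of 0.25 that did not pass. The count was 11 without the block, 9 without mock replicate 2, 9 without siRNA 3 replicate 2, 10 without siRNA 3 replicate 1 and 11 without mock replicate 1.

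Genes of the integrated stress and unfolded protein responses moved mostly the other way. Cells use these programmes to adjust translation and amino acid supply when amino acids run short or proteins misfold, largely through the factor ATF4. Of 20 measured, 10 were lower and 2 higher, against 8.38% and 5.74% of all genes, with a median log2 difference of -0.39. Chac1, an enzyme that degrades glutathione, read 7.66 and 8.06 on mock arrays and 5.80 and 7.07 with siRNA 3. The groups did not overlap, and replicate 2 was the higher array of each. Its log2 difference was -1.42 (SE 0.186, limma adjusted p = 0.00162). Ddit3, which encodes the transcription factor CHOP, read 7.77 and 8.93 on mock arrays and 6.68 and 7.31 with siRNA 3, a difference of -1.36. Nupr1, a stress-induced chromatin protein, read 7.21 and 8.14 on mock arrays and 5.88 and 7.11 with siRNA 3, a difference of -1.18. In these genes mock replicate 1 lay nearer to siRNA 3 replicate 2 than to siRNA 3 replicate 1. Psat1 (-0.82) and Phgdh (-0.75), enzymes of serine synthesis, Asns (-0.60), the asparagine synthetase, and Atf4 itself (-0.51) were also lower. Atf3 (1.63) and Dnajb9 (0.61), a chaperone of the endoplasmic reticulum, were higher.

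Most of these stress calls rest on the pairing. Without the block 2 of the genes called lower and both called higher passed. Chac1 (adjusted p = 0.071), Ddit3 (0.0583), Nupr1 (0.225), Asns (0.0531) and Atf4 (0.158) did not pass then. The count of lower calls was 6 without mock replicate 2, 8 without siRNA 3 replicate 2, 9 without siRNA 3 replicate 1 and 9 without mock replicate 1. Phgdh lost its call without mock replicate 2 (0.0856).

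The promoters of 3 of the genes that fell together are shown because a match to the core of the C/EBP-ATF response element, the site that ATF4 binds with C/EBP family partners, was found in them. They are the 250 bases before the RefSeq start (GRCm38.p6), 5′ to 3′ along the gene, with the match in capitals.
Chac1 (chr2:119350992-119351241, plus strand): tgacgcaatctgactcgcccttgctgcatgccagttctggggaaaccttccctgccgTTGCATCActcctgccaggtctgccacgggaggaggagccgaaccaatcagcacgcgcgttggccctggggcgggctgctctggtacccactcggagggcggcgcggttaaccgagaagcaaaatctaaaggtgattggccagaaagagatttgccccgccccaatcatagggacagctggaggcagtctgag
Nupr1 (chr7:126625471-126625720, minus strand): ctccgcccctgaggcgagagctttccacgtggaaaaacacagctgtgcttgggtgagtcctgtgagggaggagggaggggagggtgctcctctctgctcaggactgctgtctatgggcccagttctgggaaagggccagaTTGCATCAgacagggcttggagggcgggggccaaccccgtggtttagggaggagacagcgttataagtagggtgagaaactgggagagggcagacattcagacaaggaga
Asns (chr6:7693210-7693459, minus strand): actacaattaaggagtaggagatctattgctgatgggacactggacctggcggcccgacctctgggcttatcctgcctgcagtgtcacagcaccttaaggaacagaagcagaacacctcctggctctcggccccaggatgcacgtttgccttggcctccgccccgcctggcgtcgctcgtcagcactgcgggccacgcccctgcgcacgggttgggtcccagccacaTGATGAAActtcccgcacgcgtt

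The motif searched was TGATGNAA on both strands, in windows from 250 bases before to 50 after the start. It was present in 3.97% of 32851 promoters and in at least 1 promoter of 4.51% of 27025 genes. A match was found for 8 of the 19 stress genes that have a RefSeq promoter here, and for 6 of the 10 called lower: Chac1, Nupr1, Asns, Trib3, Herpud1 and Vldlr. No match was found for Ddit3, Atf4, Psat1 and Phgdh, which were also called lower. The list was made of genes of programmes that act largely through ATF4, which favours a share above that of all genes. Matches were also present in Atf3, which was higher, and in Slc7a11, the cystine transporter gene, whose value of -0.09 did not pass. The log2 differences of Trib3, Herpud1 and Vldlr were -0.60, -0.51 and -0.69. None of these 3 calls held without the block (adjusted p = 0.374, 0.319 and 0.22) or without mock replicate 2 (0.0956, 0.134 and 0.344). Trib3 also lost its call without siRNA 3 replicate 1 (0.202) or mock replicate 1 (0.0771), Herpud1 without siRNA 3 replicate 1 (0.0711) or replicate 2 (0.114), and Vldlr without siRNA 3 replicate 2 (0.16). A match is a description of these letters and not of binding.

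Sterol synthesis genes were lower where they were called. Of 17 measured, limma called 8 lower and none higher, against 8.38% lower among all genes, with a median log2 difference of -0.33. At an unadjusted p under 0.05 they were 11 and 0, a limit that 4187 of all 15267 genes reached in either direction. Fdft1, the squalene synthase at the entry to the sterol branch, read 10.81 and 10.70 on mock arrays and 10.18 and 9.96 with siRNA 3. Both siRNA 3 arrays lay below both mock arrays, and the log2 difference was -0.68 (SE 0.080, limma adjusted p = 0.001). Lss, which closes the sterol rings, read 9.38 and 9.47 on mock arrays and 8.78 and 8.52 with siRNA 3, a difference of -0.78 (adjusted p = 0.00242). Both calls held without the block and without any 1 array. Tm7sf2 (-0.65) and Nsdhl (-0.52), which act later in the pathway, were lower too, but lost their calls without mock replicate 2 (0.0925 and 0.063), Tm7sf2 also without the block (0.0617) or without siRNA 3 replicate 2 (0.0717) and Nsdhl without siRNA 3 replicate 1 (0.0672). Srebf2, which encodes the main transcription factor of sterol synthesis, did not pass (-0.27). The core of the sterol regulatory element, TCACNCCAC, was searched in the same windows on both strands and was present in 1.44% of 27025 genes. It was in none of the 15 list members with a promoter in the table, 7 of them called lower, which says only that these letters are not in these windows. Fdft1 and Sqle had no promoter there and were not searched. The count of lower calls was 3 without the block, 2 without mock replicate 2, 3 without siRNA 3 replicate 1, 4 without siRNA 3 replicate 2 and 6 without mock replicate 1.

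Ribosomal protein genes split into a group that rose strongly and a larger group near 0. Of 21 measured, out of 82 on the list, 9 were higher and 1 lower, against 5.74% and 8.38% of all genes. Rps15a, of the small subunit, read 5.37 and 4.93 on mock arrays and 7.15 and 7.14 with siRNA 3, a rise of 1.99 on the log2 scale (SE 0.138, limma adjusted p = 0.000124). Rpl14, of the large subunit, was bright on every array, with 11.68 and 11.39 on mock arrays and 12.98 and 13.22 with siRNA 3, a rise of 1.56. Rpl21 rose by 1.64, Rps3 by 1.33, Rps6 by 1.29 and Rpl22 by 1.10, all with the siRNA 3 arrays above the mock arrays. The 11 members that did not pass had differences from -0.13 to 0.24. Ribosomal protein genes have many near-identical pseudogenes that probes may also detect, so these values are uncertain as to locus. The count of higher calls was 8 without the block and 7 to 9 without 1 array. Rpl39l, a testis-enriched copy, was lower (-0.49), and lost its call without mock replicate 2 (0.059).

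Replication-dependent histone mRNAs normally end in a stem-loop and carry no poly(A) tail. The list of these genes, which also holds Slbp, had 9 measured members. Limma called 4 higher and none lower, against 5.74% and 8.38% of all genes. The list's counts were the same at an unadjusted p under 0.05, which 4187 of all 15267 genes reached. H1f2 read 7.62 and 7.86 on mock arrays and 9.29 and 9.998 with siRNA 3, a rise of 1.91 on the log2 scale (SE 0.123, limma adjusted p = 0.000124). H2bc4, a core histone H2B gene, rose by 1.20 and H4c9, a histone H4 gene, by 1.08, with the higher siRNA 3 value in replicate 2 each time. H3c15 read 5.24 and 6.44 on mock arrays and 6.33 and 6.85 with siRNA 3, so its groups overlapped. Its call (0.75, adjusted p = 0.0373) ended without the block (0.279), without siRNA 3 replicate 1 (0.079) or without mock replicate 1 (0.238). H2bc21 (-0.17), H1f4 (-0.16) and Slbp (-0.15), the stem-loop binding protein gene, did not pass. Members of a histone family share much of their coding sequence, so a probe set may detect several of them.

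Among 29 general mRNA decay factors 2 were higher, Hnrnpd among them, and 3 lower, 17.2% called against 14.1% of all genes. The exosome nuclease gene Dis3 (-0.50) and the deadenylase subunit gene Cnot10 (-0.53) were lower, and each lost its call without mock replicate 2 (0.0657 and 0.0728). Of 19 core splicing factors 3 were higher and 1 lower, 21.1% called. The median mock levels of the decay and splicing lists, 8.58 and 11.09, lay in the range of the brightest quartile, of which 23.2% were called. Srsf10, a splicing regulator that acts when dephosphorylated, read 8.65 and 8.24 on mock arrays and 9.32 and 9.50 with siRNA 3, a log2 difference of 0.97 (SE 0.133, limma adjusted p = 0.00202). This call held without the block and without any 1 array. Without mock replicate 2, 1 decay factor and 1 splicing factor were called higher and none of either list lower. The splicing factors called higher were also 1 without siRNA 3 replicate 2, and none was lower without the block or without either siRNA 3 array. The decay factors called higher were also 1 without the block, without mock replicate 1 or without siRNA 3 replicate 1.

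Genes of ERK signalling and its early response were called in both directions, 4 higher and 3 lower of 11 measured, against 5.74% and 8.38% of all genes. Phlda1 read 7.65 and 6.95 on mock arrays and 9.38 and 9.09 with siRNA 3, and Jun, a subunit of the AP-1 factor, 6.54 and 6.07 against 7.85 and 7.58. The siRNA 3 arrays of both genes lay well above the mock arrays, with log2 differences of 1.94 and 1.41. Ier3 (-1.22), an early gene that affects survival, and Egr1 (-0.76), an early zinc finger factor, were lower, with limma adjusted p of 0.00174 and 0.00164. Spry4 (-0.34) and Spry2 (-0.03), feedback inhibitors of the pathway, did not pass. Myc was higher (0.48) and lost its call without the block (0.18), without siRNA 3 replicate 1 (0.0589) or without mock replicate 2 (0.0947). In each of these 3 fits, 2 genes of the list were called higher and 2 lower.

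Of 22 cell cycle genes, 2 were higher and 2 lower, 18.2% called, near the 14.1% of all genes. The list's median mock level of 10.91 lay in the range of the brightest quartile, of which 23.2% were called. The higher ones were the D-type cyclins that drive the exit from G1. Ccnd2 read 7.68 and 7.66 on mock arrays and 8.90 and 9.22 with siRNA 3, and Ccnd1 10.34 and 9.92 against 10.98 and 10.74. Neither gene's groups overlapped, and the log2 differences were 1.39 (SE 0.125, limma adjusted p = 0.000392) and 0.72 (SE 0.083, limma adjusted p = 0.000925). Ccnd3 (0.18) did not pass. The kinase genes Cdk1 and Cdk4 were lower, each with a difference of -0.28, and lost their calls without the block (0.107 and 0.105) and without any 1 of the siRNA 3 and mock arrays (0.109 to 0.225 for Cdk1, 0.0831 to 0.301 for Cdk4).

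Of 31 pluripotency genes, 5 were lower and 1 higher, 19.4% called against 14.1% of all genes, with a median log2 difference of -0.08. The list's median mock level of 10.96 lay in the range of the brightest quartile, of which 23.2% were called. At an unadjusted p under 0.05, 10 were lower and 6 higher, a limit that 4187 of all 15267 genes reached in either direction. The core factors did not pass. Their differences were -0.06 for Pou5f1 (95% interval -0.24 to 0.12), 0.19 for Sox2 (0.02 to 0.35), 0.21 for Nanog (0.06 to 0.37), 0.24 for Klf4 (0.02 to 0.46), -0.14 for Esrrb (-0.38 to 0.10) and -0.04 for Zfp42 (-0.22 to 0.13). Dppa3, a maternal factor that protects DNA methylation in the zygote, read 8.41 and 8.01 on mock arrays and 7.18 and 7.45 with siRNA 3. It fell by 0.89 on the log2 scale (SE 0.160, limma adjusted p = 0.00695), and the call held without the block and without any 1 array. Tcl1, a co-activator of the kinase Akt, was lower (-0.53), a call that ended without the block (0.0712). The count of lower calls was 1 without the block and 3 without either siRNA 3 array.

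Lifr, the receptor of leukaemia inhibitory factor, was lower (log2 difference -0.64) and lost its call without the block (0.0624), without siRNA 3 replicate 1 (0.183) or without mock replicate 1 (0.188). The growth factor gene Fgf4 (-0.30) and the Krüppel-like factor gene Klf2 (-0.28) lost theirs without the block (0.115 and 0.153) and without any 1 of the siRNA 3 and mock arrays (0.106 to 0.351 and 0.062 to 0.289). Sall4, a zinc finger factor, was higher (0.41) and lost its call without the block (0.113), without siRNA 3 replicate 1 (0.116) or without mock replicate 2 (0.166). The other members did not pass, with log2 differences from -0.58 to 0.39. They were Pecam1, Lin28a, Socs3, Dppa2, Dppa4, Dppa5a, Tdgf1, Il6st, Fbxo15, Nr0b1, Nr5a2, Stat3, Klf5, Gbx2, Tfcp2l1, Utf1, Gdf3, Prdm14 and Tbx3. Without mock replicate 1, Dppa4 (adjusted p = 0.0464), Socs3 (0.0276) and Tdgf1 (0.041) were called lower and Tbx3 (0.0218) higher. Lin28a was called lower without siRNA 3 replicate 1 (0.00439) and Pecam1 without mock replicate 2 (0.0456). Without either siRNA 2 array, Pecam1 was called lower and Tbx3 higher.

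Markers of the epiblast after implantation went both ways, 4 lower and 3 higher of 20 measured, against 8.38% and 5.74% of all genes. Lefty1 and Lefty2, secreted inhibitors of Nodal, read 11.61 and 11.12, and 9.07 and 8.66, on mock arrays and 10.77 and 10.52, and 8.35 and 7.997, with siRNA 3. Both were lower on each siRNA 3 array than on either mock array, with log2 differences of -0.72 and -0.69. Nodal itself read 9.24 and 9.12 on mock arrays and 9.91 and 9.81 with siRNA 3, a difference of 0.68 (SE 0.096, limma adjusted p = 0.00229). The largest rise of the list was 0.81, in a member not named here. Lef1, a factor of Wnt signalling, was lower (-0.93), as was Dnmt3l, a cofactor of DNA methylation (-0.67). Without the block Nodal kept its call (0.0127), and Lefty1 (0.0529), Lefty2 (0.059), Lef1 (0.0835) and Dnmt3l (0.128) did not. The count of higher calls was 1 without the block or without mock replicate 2, and 2 without any other 1 of the siRNA 3 and mock arrays.

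Markers of trophectoderm, the outer layer of the blastocyst, were the lineage list with the most genes higher, 5 of 22 measured, with 1 lower, against 5.74% and 8.38% of all genes. Eomes read 6.77 and 6.32 on mock arrays and 7.43 and 7.51 with siRNA 3, and Gata3 4.30 and 3.99 against 4.89 and 5.01. Neither overlapped, with log2 differences of 0.92 and 0.81. The Gata3 signal on mock replicate 2 lay below 4.28 and is not shown to be above background. Krt8, a keratin, read 9.19 and 7.75 on mock arrays and 9.59 and 8.88 with siRNA 3, so its groups overlapped, and it was not called without the block (0.389). Cdx2, the factor that sets up this layer, did not pass (0.04). None of the list was called without mock replicate 2 (0.0602 for Eomes, 0.0793 for Gata3, 0.105 for Krt8), and 2 were called without the block. The summed level of the list on the linear scale, as log2, was 11.71 and 11.19 on mock arrays and 12.06 and 11.65 with siRNA 3, which overlap.

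An unadjusted p under 0.05 was reached by 4187 of all 15267 genes. Among all genes 14.1% were called, which is the background for the lists that follow. Of 23 primitive endoderm markers, 13% were called, a share near that background. Foxa1 and Sparc, a matrix protein (0.61, adjusted p = 0.00253), were higher. Cubn, an endocytic receptor, was lower (-1.03) and lost its call without the block (0.178) or without mock replicate 2 (0.0658), while 2 of the list were called lower without mock replicate 1 or siRNA 3 replicate 1. The defining factors Gata4 (-0.07), Gata6 (0.25) and Sox17 (-0.31) did not pass. Of 20 mesoderm markers, 15% called, limma called 3 higher and none lower (6 and 1 at an unadjusted p under 0.05), and 1 higher without the block, without either siRNA 3 array or without mock replicate 2. Kdr, a receptor of endothelial growth factor, read 5.28 and 5.45 on mock arrays and 6.09 and 6.19 with siRNA 3, a log2 difference of 0.78 (adjusted p = 0.0039) that held without the block and without any 1 array. Of 17 neuroectoderm markers, 17.6% called, 2 were higher (1 without siRNA 3 replicate 2 or mock replicate 2) and 1, Stmn2, lower. Neurod1, a factor of neuron differentiation, read 8.61 and 8.63 on mock arrays and 9.61 and 9.84 with siRNA 3, a difference of 1.10 (SE 0.095, limma adjusted p = 0.000367). Pax6, an early neural factor, did not pass (-0.41). None of 17 fibroblast markers was called by limma (log2 differences from -0.25 to 0.23), and 0 had an unadjusted p under 0.05.

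Germ cell and meiosis genes, many of which are silent in most tissues but active in stem cell lines, included 7 called lower and 2 higher of 23 measured, against 8.38% and 5.74% of all genes. Psma8 read 8.43 and 8.99 on mock arrays and 6.84 and 7.07 with siRNA 3, a log2 difference of -1.75 (SE 0.163, limma adjusted p = 0.000428). Tex11, an X-linked meiosis gene, read 4.53 and 5.09 against 3.65 and 3.82, a difference of -1.07, with a siRNA 3 signal not shown to be above background. In both genes every siRNA 3 array lay below every mock array. Stag3, the cohesin of meiosis, was lower (-0.94), and lost its call without the block (0.0891) or without mock replicate 2 (0.061). Dazl, an RNA-binding protein of germ cells, was higher (0.83), with 0.119 without the block. Of the list, 4 were called lower and none higher without the block, and 4 lower and 1 higher without siRNA 3 replicate 1 or without mock replicate 2. Without siRNA 3 replicate 2, 1 was higher, and without mock replicate 1, 4 were. Of the 2 measured genes of the 2-cell-like state, Zfp352 read 6.45 and 5.99 on mock arrays and 8.03 and 8.09 with siRNA 3, a rise of 1.84, and Eif1a (0.08) did not pass.

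The last comparison set siRNA 3 against siRNA 2, the other siRNA to the same transcript, without using the mock arrays in the difference. Fip1l1 read 8.26 and 7.79 with siRNA 2, close to its values with siRNA 3. The log2 difference of siRNA 3 minus siRNA 2 was 0.10 (95% interval -0.23 to 0.43). No gene passed the threshold in limma (smallest adjusted p 0.274), while 1309 genes, 8.57%, had an unadjusted p under 0.05, and 644 without the block. The median half-width of the 95% interval was 0.27 on the log2 scale, and a p that misses the threshold does not show that the siRNAs act alike. Without siRNA 3 replicate 2, 30 genes passed, 6 without siRNA 3 replicate 1 and 1 without either mock array.

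Bhmt, an enzyme of methionine synthesis, stood furthest below siRNA 2 among the genes of smallest p. It read 4.89 and 6.13 with siRNA 3 against 6.18 and 7.40 with siRNA 2, and the mock arrays read 3.79 and 4.34. The siRNA 3 arrays lay between the other groups within each pair, and the difference from siRNA 2 was -1.29 (95% interval -1.69 to -0.88, adjusted p = 0.274). Against mock its log2 difference was 1.44 (adjusted p = 0.00134, and 0.12 without the block). The Bhmt signal on mock replicate 1 lay below 4.28 and is not shown to be above background. Insm1, a zinc finger factor of neuroendocrine cells, read 6.46 and 6.21 with siRNA 3 against 5.74 and 5.23 with siRNA 2, a difference of 0.85 (0.55 to 1.15). A2m, a protease inhibitor, read 5.86 and 6.31 with siRNA 3 against 6.46 and 7.24 with siRNA 2, a difference of -0.76. Against mock, A2m had a log2 difference of -1.37 with siRNA 3, and pair differences of -0.73 and -0.48 with siRNA 2. None of these, nor Ifitm3, Cldn6, Man2b1, Fcho2, Mt1, Vnn1 or Cd200, the others of smallest p, passed the threshold between the siRNAs.

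Of the 30 genes with the largest rises and falls against mock, 23 had an interval of siRNA 3 minus siRNA 2 that included 0. They were chosen on the same siRNA 3 arrays, so the differences are a description. Cryab read 8.02 and 8.29 with siRNA 3 and 8.49 and 8.99 with siRNA 2 (difference -0.58). H1f2 stood the other way, with 9.29 and 9.998 against 9.04 and 9.35 (0.45), as did Rtkn (0.37). Dmac2l read 5.30 and 4.85 with siRNA 3 and 5.99 and 5.41 with siRNA 2 (-0.62), and Diaph2 5.04 and 4.48 against 4.46 and 4.01 (0.52). Against mock, the log2 differences of the 30 genes ranged from -2.33 to -1.57 for the falls and from 1.62 to 2.88 for the rises.

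**Figure D5:**
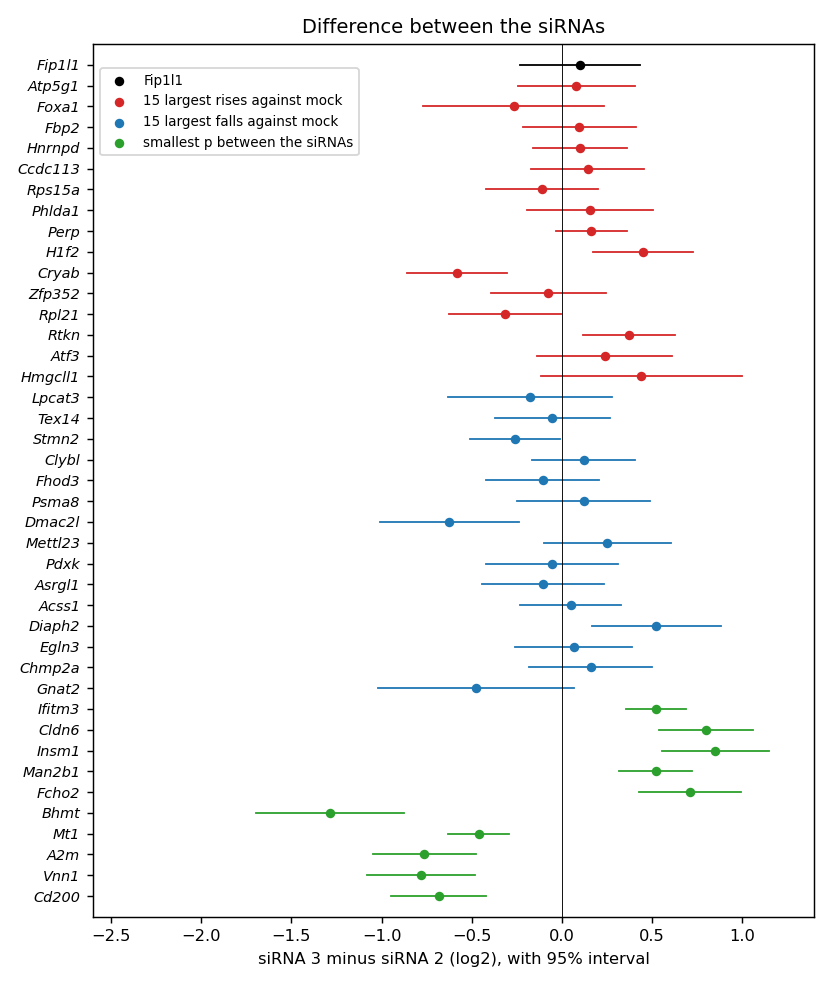
The log2 difference between siRNA 3 and siRNA 2 is shown with its 95% interval for Fip1l1 (black), the 15 largest rises (red) and 15 largest falls (blue) against mock, and the 10 genes of smallest p between the siRNAs (green). Most red and blue intervals cross 0, Bhmt lies at -1.29, and no gene passed the adjusted threshold.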

How the data were processed

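The unit is log2: RMA values on the log2 scale were deposited, and RMA is named per the submitters' processing notes. The version of RMA and its settings were not given in the sources used here, nor was the definition of a probe set. RMA corrects background, normalizes between arrays and summarises probes, which can compress differences at both ends of the scale. Detection calls were not used.

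Of 16556 probe sets, the platform annotation gave 15270 a single gene, none several, and 1286 no name here. All 15270 gene numbers were found in the RefSeq table of GRCm38.p6, which was used for names and promoters. For 3 genes with 2 probe sets the brighter was kept, and no filter on level was used.

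In limma 3.58.1 (R 4.3.3), 3 group means and the replicate number as a block were fitted to all 6 arrays, with empirical Bayes moderation and a prior trend over level. The p-values are two-sided, with Benjamini-Hochberg adjustment over 15267 genes and a threshold of 0.05. The pairing comes from the titles. Deviations from group means correlated between same-numbered arrays at 0.443 (siRNA 3 with mock), 0.281 (siRNA 2 with mock) and 0.383 (siRNA 2 with siRNA 3). The code of the fit was run on simulated arrays with independent noise and the same block. Such a run cannot test the pairing or whether the spread of these arrays is technical. Alternatives changed the block, arrays, prior, filter, scaling, probe set rule and features, and left out each array. Plots used Python 3.11.15 and matplotlib 3.10.9.

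The members and 27 gene lists were chosen with earlier results of these data known. Genes named are Fip1l1, the 15 largest rises and falls whose pairs share the sign (gene models and small RNAs left out), the 5 of smallest p each way between the siRNAs, all measured members of the 3′ end, RNA interference and pluripotency lists, up to 6 members of other lists (larger changes and called members before others), close paralogues and cell type markers. Asns, Atf4, Dnajb9, Herpud1, Trib3, Vldlr, Slc7a11, Cdkn1a, Srebf2, Rpl39l, Slbp, Spry2 and Spry4 were named outside this rule, after their values were seen. The largest rise of the post-implantation epiblast list was left unnamed. The lists were described by counts and medians, with no set test.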

Additional observations from a re-analysis of the deposited data

Results flagged for a closer look

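For 5 of the genes named, both siRNA 3 arrays lay on one side of the mock array of their replicate and both siRNA 2 arrays on the other side. The log2 difference of siRNA 3 minus siRNA 2 was 0.711 for Fcho2, -0.226 for Fbxo15, 0.196 for Diaph3, -0.172 for Col1a2 and -0.0866 for Pabpn1. The difference was tested in limma and none of the 5 passed, and Fcho2 had an adjusted p of 0.274. Fcho2, an endocytic adaptor, read 8.76 and 8.81 with siRNA 3 against 8.17 and 7.97 with siRNA 2, and the mock arrays read 8.73 and 8.29.

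The probe sets without a gene name stood outside the main comparison. When they were added to the fit, 129 of 1286 (10%) passed the threshold for siRNA 3 against mock, 54 higher and 75 lower, and 20 of them differed by at least 2-fold. The same fit called 2085 of the named genes.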

How the results depend on the processing

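With no replicate block the calls fell from 2156 to 877 (345 higher, 532 lower) and the called members of the gene lists from 118 to 63. Leaving out 1 array at a time gave 702 (without mock replicate 2) to 2390 calls, 294 to 1010 higher, 408 to 1380 lower, 167 (without mock replicate 2) to 394 (without mock replicate 1) at 2-fold or more, 65 to 128 called list members, 0 to 30 (without siRNA 3 replicate 2) genes between the siRNAs and 27.4% to 41.4% of Fip1l1 remaining. A fit without siRNA 2 gives no value for the difference between the siRNAs. Under the other settings (only the 4 arrays of the contrast, no trend or a robust prior, filters on dim genes, median centring, repeated quantile normalization, unnamed probe sets, mean of probe sets) the count lay between 1786 and 2386 and no gene differed between the siRNAs. The share of calls that were higher was 40.6%, 47.2% after median centring and 46% after repeated quantile normalization. Of the 205 genes named, 111 were called, and 80 of these kept the call without any 1 array. With no replicate block, 36 lost the call, each with its value in the report, and the pairing changed no other of them. None of the 111 changed sign without any 1 array. The sign turned without some array in 37 genes that did not pass. The log2 values were Ago4 -0.15 to 0.10, Cdx2 -0.0999 to 0.19, Chmp2b -0.0904 to 0.16, Col1a1 -0.27 to 0.00686, Col1a2 -0.0867 to 0.0144, Cpsf1 -0.0127 to 0.21, Cpsf3 -0.27 to 0.000289, Cpsf4l -0.0357 to 0.38, Cstf1 -0.0064 to 0.0427, Cstf2 -0.00715 to 0.34, Cstf2t -0.0973 to 0.071, Dgcr8 -0.11 to 0.16, Diaph1 -0.26 to 0.0364. Further ones were Fhod1 -0.0651 to 0.12, Gbx2 -0.15 to 0.25, H2bc21 -0.39 to 0.041, Hnrnpdl -0.20 to 0.14, Ifih1 -0.56 to 0.00273, Irf7 -0.56 to 0.0241, Klf5 -0.28 to 0.29, Lpcat4 -0.26 to 0.36, Nr0b1 -0.23 to 0.0437, Nr5a2 -0.18 to 0.19, Pabpc1l -0.14 to 0.87, Papolb -0.25 to 0.0276, Pou5f1 -0.16 to 0.0311. The last were Ppp1ca -0.000665 to 0.0992, Scaf8 -0.0738 to 0.14, Spry2 -0.29 to 0.23, Stat3 -0.19 to 0.00127, Tfcp2l1 -0.0891 to 0.28, Tnrc6b -0.22 to 0.14, Tnrc6c -0.0551 to 0.30, Tut1 -0.17 to 0.0503, Utf1 -0.0455 to 0.27, Wdr33 -0.17 to 0.0237, Zfp42 -0.15 to 0.0631. Median centring turned Ago4 to 0.00231, Cstf2t to 0.0135 and Hnrnpdl to 0.000376, and repeated quantile normalization turned Ago4 to 0.00404, Cstf2t to 0.0173 and Spry2 to 0.000166. The cause was not tested. Of the dimmest quartile of genes 2.1% were called, and no detection call shows which of them were above background.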
